A study of Mus musculus with 17 samples.

Results

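Genes that carry the signal of growth factor receptors through phosphoinositide 3-kinase (PI3K) were followed over 17 oligonucleotide arrays of NIH 3T3 cells: Sgk1, Irs1, Irs2, Pik3r1, Pik3ca, Akt1, Akt2 and Insr. Members were the probe sets whose annotation names 1 of these 8 genes and no other. The 8 were among 12393 and 8251 genes named by a single-gene probe set. Their probe sets numbered 14 of 22690 probe sets in a table of 8 arrays and 9 of 12488 in a table of 9 arrays, and every gene had at least 1 in each table. NIH 3T3 cells are fibroblasts, a line from mouse embryos. The study measured total RNA of quiescent cells and asked which genes induced by platelet-derived growth factor (PDGF) depend on particular kinases. The 8-array table is the Src experiment, with vehicle, SU6656 (2 µM), UO126 (10 µM) and LY294002 (7.5 µM), each without PDGF and with PDGF at 25 ng/ml for 1 h. The 9-array table holds the MEK experiment, with untreated cells, UO126 (10 µM) and PD98059 (7.5 µM), each without and with PDGF at 25 ng/ml for a period the labels do not state. It also holds a repeat of the Src experiment with vehicle, PDGF for 1 h, and PDGF with SU6656. SU6656 is an inhibitor of Src family kinases and LY294002 of PI3K. MEK, the activator of ERK, is the target of both UO126 and PD98059. All groups are the same cell line by the labels, and each condition had 1 array per experiment.

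The insulin receptor (Insr) and other receptors phosphorylate the adaptors IRS1 and IRS2, which dock PI3K. PI3K is a heterodimer of a regulatory subunit (p85α, from Pik3r1) and a catalytic subunit (p110α, from Pik3ca), and its lipid product brings AKT1 and AKT2 to the membrane, where they are activated. SGK1 is a relative of AKT that is also activated downstream of PI3K, but its transcript is short-lived and is itself induced by serum and glucocorticoids. Active AKT phosphorylates FOXO transcription factors and keeps them out of the nucleus, and Irs2 is a known FOXO target in liver.

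The start regions of 3 genes are shown because the results turn on these genes: Sgk1 moved with PDGF, Irs2 was high on the LY294002 arrays, and Irs1 is the close relative of Irs2. The sequences are from RefSeq (mouse build GRCm38.p6), run from 250 bases before to 50 bases after the annotated start, and are written 5′ to 3′ on the gene's strand. Capitals mark the TATA box letters TATAAA in Sgk1, and the E-box CACGTG and the insulin response element core TGTTTTG in the Irs genes. In Irs1 the E-box and the first TGTTTTG overlap.
Sgk1, chr10:21994416-21994715, plus strand: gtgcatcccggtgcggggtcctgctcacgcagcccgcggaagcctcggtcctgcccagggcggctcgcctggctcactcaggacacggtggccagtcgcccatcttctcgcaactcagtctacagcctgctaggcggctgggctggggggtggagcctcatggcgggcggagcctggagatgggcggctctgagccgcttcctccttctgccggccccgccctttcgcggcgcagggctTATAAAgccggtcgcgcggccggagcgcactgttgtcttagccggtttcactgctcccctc
Irs1, chr1:82291390-82291689, minus strand: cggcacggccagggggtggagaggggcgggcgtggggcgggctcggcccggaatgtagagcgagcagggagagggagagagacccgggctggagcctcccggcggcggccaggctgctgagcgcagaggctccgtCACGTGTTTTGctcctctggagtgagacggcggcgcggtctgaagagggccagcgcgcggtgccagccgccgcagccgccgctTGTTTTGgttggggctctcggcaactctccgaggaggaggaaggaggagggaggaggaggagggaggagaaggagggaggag
Irs2, chr8:11008880-11009179, minus strand: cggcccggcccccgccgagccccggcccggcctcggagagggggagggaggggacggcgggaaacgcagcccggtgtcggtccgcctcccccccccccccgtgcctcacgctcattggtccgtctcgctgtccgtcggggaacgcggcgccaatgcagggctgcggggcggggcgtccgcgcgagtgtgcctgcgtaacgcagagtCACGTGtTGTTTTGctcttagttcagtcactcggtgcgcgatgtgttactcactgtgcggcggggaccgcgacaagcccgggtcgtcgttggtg

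The Irs1 and Irs2 windows had in common an E-box next to a TGTTTTG. Letters were searched on both strands of 32851 windows of the same length. CACGTG was in 7.15% of them, TGTTTTG in 6.28% and both together in 0.408%, or 134 windows. The longest runs that these windows of Irs1 and Irs2 share were gtcacgtgtt and tgttttgctc, 10 bases each, and each was in 25 of the 32851 windows (0.076%). The letters TGTTTAC, the 1 form searched for as a FOXO core, were in 3.65% of all windows and in neither Irs window. Of the 17 windows of 7 members they were found in 1 of Akt1. Whether FOXO factors bind TGTTTTG or other letters of the Irs windows was not tested. RefSeq lists 6 starts for Sgk1. In the window shown, TATAAA (13.6% of all windows) stood at bases 240 to 245. The AP-1 letters TGANTCA (7.81%), the ETS core CCGGAAG (8.86%) and the CArG box bound by SRF (1.63%) were in none of the 6 Sgk1 windows. A match is a description of letters, and its absence concerns these windows alone.

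Signals below are the deposited intensities, in units in which every array has the same trimmed mean. Effects are on a log2 scale after quantile normalisation and addition of the 20th percentile (36.3 signal units in the 8-array table, 21.2 in the other), so they understate changes of dim probe sets. Effects were tested with limma over all probe sets left by a filter on the lowest 30%, and a call is a Benjamini-Hochberg adjusted p under 0.05. Of the members, 10 of 14 probe sets passed the filter in the 8-array table and 9 of 9 in the other. The 4 that did not were the only one of Irs2, 2 of Pik3r1 and 1 of Insr. The labels do not state that separate cultures were used, and p-values here cover no more than the spread among these arrays. With 1 array per condition in each experiment, that spread is not one of replicates. It holds differences between treatments, and part of it may be technical. Array medians were 174.7 to 198.4 and 133.7 to 156.1 signal units, and precision is limited by how few arrays there are. Of 12 fibroblast markers on each array design, 11 and 12 passed the filter, with summed signals of 200624.7 to 236689.6 and 82096.1 to 145733.4. Of the 4 adipocyte markers on each design, 1 passed in each table, and Adipoq and Fabp4 were not among those that did. Other lists passed in larger part: muscle 4 of 5 in each table, and macrophage and leukocyte 5 of 7 and 4 of 7. Epithelial markers had 3 of 5 in each table, and endothelial ones 3 of 5 and 2 of 5. Passing this filter thus does not tell cell types apart. Muscle markers had summed signals of 869.5 to 1407.4 and 1065.1 to 2501.4. The untreated array of the 9-array table stood apart by its Gapdh probe sets, with a 3′ over 5′ ratio of 1.13 where the others reached at most 0.907.

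Sgk1, the serum and glucocorticoid regulated kinase, was the member that rose with PDGF, in every pair of arrays and in both tables. In the Src experiment its signal (probe set 1416041_at) was 859.9 with vehicle and 6922.6 with PDGF, 561.4 and 4202.7 with SU6656, 547.5 and 3233.0 with UO126, and 1455.7 and 6592.2 with LY294002. All 4 arrays with PDGF lay above all 4 without it. In the MEK experiment (97890_at) it was 1975.4 untreated and 8098.4 with PDGF, 1486.4 and 4082.5 with UO126, and 1451.1 and 4528.7 with PD98059. In the repeat it was 1208.3 with vehicle, 5636.1 with PDGF, and 4030.3 with PDGF and SU6656. The 5 arrays with PDGF of that table again lay above the other 4. The PDGF effect over 4 pairs was 2.58 (SE 0.123, 95% interval 2.31 to 2.86, adjusted p = 5.8e-06) in the Src experiment, a 6-fold rise. Over the 4 pairs of the other table it was 1.84 (SE 0.139, 1.53 to 2.15, adjusted p = 4.51e-05), a 3.57-fold rise. Sgk1 was the 1 member probe set called of 10 tested in the first table, where 3.31% of 15838 were called (2.5% upwards), and the 1 of 9 in the second, where 1.69% of 8695 were called (1.43% upwards). These are RNAs of whole cultures, in which fewer cells expressing a gene and less RNA per cell cannot be told apart.

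**Figure D1:**
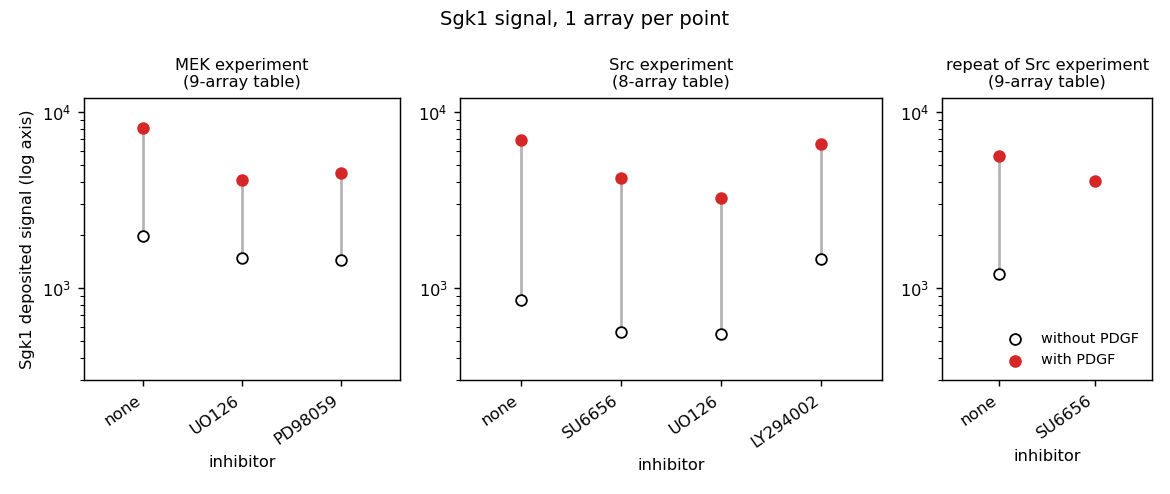
Deposited Sgk1 signal (log axis) on each of the 17 arrays, by experiment and inhibitor. Open points are arrays without PDGF and filled points arrays with PDGF, 1 array each, with no error bars. Every filled point lies above every open point of its table. In the MEK experiment PDGF with UO126 (4082.5) and with PD98059 (4528.7) lie below PDGF alone (8098.4). In the Src experiment PDGF with UO126 (3233.0) and with SU6656 (4202.7) lie below PDGF alone (6922.6). In the repeat PDGF with SU6656 (4030.3) lies below PDGF alone (5636.1).

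The MEK experiment and the UO126 arrays of the Src experiment bear on how far the Sgk1 rise needs MEK. With PDGF present, Sgk1 had a log2 ratio of −1.15 with UO126 and −0.98 with PD98059 in the MEK experiment, and −1.14 with UO126 in the Src experiment. All 3 single-array ratios put Sgk1 at about the same level below PDGF alone. Measured as the difference in normalised signal between the arrays with and without PDGF, UO126 left 36% and PD98059 44.1% of the rise of 6816.6 units in the MEK experiment, and UO126 left 42.4% of the rise of 6042 units in the Src experiment. These shares have no replicate. For Dusp6, an ERK phosphatase used as a readout of MEK, the shares were 27.8%, 29.4% and 44.3%. With SU6656 the Dusp6 share in the Src experiment was 46.6%, close to that with UO126. The readouts were not uniform. Spry2 kept 74.1% with UO126 in the Src experiment, and the shares of the readouts Fosl1 and Egr1 are given below. Etv4 and Etv5 had too small a rise for a share (−23.6 and 33.9 units). None of the readout probe sets tested was called with UO126 in the Src experiment (Dusp6 −1.07, limma's adjusted p = 0.306, and Egr1 −0.35, adjusted p = 0.857).

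With UO126 and PD98059 as 2 samples of MEK inhibition, the Sgk1 effect under PDGF was −1.08 (SE 0.151, 95% interval −1.42 to −0.75), with limma's adjusted p = 0.0606, not past the threshold. Limma called 0 of 8695 probe sets (0%) in that comparison, while 625 (7.19%) had an unadjusted p under 0.05. With the lowest 50% of probe sets left out, Sgk1 had an adjusted p = 0.0335, and with 1 mean value per gene an adjusted p = 0.0406. Without PDGF the effect of MEK inhibition was −0.41 (−0.75 to −0.08, adjusted p = 0.588, with 0.0115% of probe sets called). The interaction, which asks whether the PDGF rise itself was smaller in log2 terms, was −0.67 (SE 0.191, −1.10 to −0.25, adjusted p = 0.794). There limma also called 0 of 8695 (0%), with 427 at an unadjusted p under 0.05. In the Src experiment the basal signal was lower with UO126 as well (547.5 against 859.9), and the interaction of PDGF with UO126 was −0.21 (−0.86 to 0.45, adjusted p = 0.9, with 0.0189% of probe sets called), or −0.46 to −0.05 without 1 array. The UO126 effect over both arrays was −0.87 (SE 0.175, −1.27 to −0.48, adjusted p = 0.249, with 0.0442% called).

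LY294002 left Sgk1 high. Under PDGF its signal was 6592.2 with LY294002 and 6922.6 without, a log2 ratio of −0.09, and without PDGF it was 1455.7 against 859.9, a ratio of 0.74. Over both arrays the effect was 0.32 (−0.07 to 0.71, adjusted p = 0.491, with 0.511% of probe sets called), or 0.02 to 0.62 without 1 array. LY294002 kept 83.1% of the PDGF rise in normalised signal. As a log2 ratio of PDGF over its partner array, the rise was 2.13 with LY294002 and 2.43 with UO126. On that scale the rise was thus the smaller with LY294002. The level of Sgk1 was lower with UO126 than with LY294002, both without and with PDGF. The contrast of UO126 minus LY294002, added after the data were seen, was −1.20 (SE 0.175, −1.59 to −0.80, adjusted p = 0.0147), and 1.4% of probe sets were called in it (0.783% downwards). This call was lost without the LY294002 array (log2 −0.89, adjusted p = 0.138), the UO126 array (−1.30, adjusted p = 0.0548) or the array with PDGF and UO126 (−1.09, adjusted p = 0.0828), without the filter (adjusted p = 0.0528) and without the variance trend (adjusted p = 0.227). The interaction of PDGF with LY294002 was −0.60 (−1.11 to −0.09, adjusted p = 0.999), in a comparison where limma called 0 of 15838 (0%) and 719 (4.54%) had an unadjusted p under 0.05.

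With SU6656, Sgk1 signals were below those without inhibitor. Without PDGF the signal was 561.4 with SU6656, beside 547.5 with UO126. In the Src experiment SU6656 left 59.2% of the PDGF rise in normalised signal, where UO126 left 42.4%. The difference between SU6656 and UO126 was not tested. SU6656 had a log2 ratio of −0.73 under PDGF and −0.59 without PDGF in the Src experiment, and −0.42 under PDGF in the repeat. The effect over both arrays of the Src experiment was −0.66 (SE 0.175, adjusted p = 0.408, with 0.107% of probe sets called), or −0.91 to −0.41 without 1 array. In the repeat, fitted in the 9-array table, it was −0.40 (SE 0.179, adjusted p = 0.831), and limma called 0 of 8695 (0%), with 516 at an unadjusted p under 0.05. The interaction of PDGF with SU6656 was 0.31 (−0.33 to 0.95, adjusted p = 0.963), or 0.12 to 0.53 without 1 array, where limma called 0 of 15838 (0%) and 873 had an unadjusted p under 0.05. All 3 ratios were below 0, and none of these tests passed the threshold.

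The genes whose levels ran most closely with Sgk1 were other early PDGF genes. Over 5529 genes kept in both tables, the smaller of the Pearson correlations with Sgk1 (over 8 and 9 arrays, centred within experiment) was 0.983 for Dusp6, 0.974 for Errfi1, an inhibitor of the EGF receptor, and 0.971 for Nppb, a natriuretic peptide. Egr2, a zinc finger transcription factor, and Fosl1, an AP-1 component, each had 0.962. The arrays share the PDGF contrast, so these values describe these arrays only. Fosl1 kept 38.7% of its rise with UO126 in the Src experiment. In the MEK experiment it kept 40.6% with UO126 and 46.9% with PD98059. These shares were close to those of Sgk1, but the correlation used the same arrays, so this is no separate likeness. Egr1, another early factor and also a readout of MEK, kept 122%, 68.8% and 80.9%.

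Irs2, an adaptor of the insulin and IGF1 receptors, had its highest signals on the arrays with LY294002. Its signal in the Src experiment (1443969_at) was 20.6 with vehicle, 14.3 with SU6656, 23.9 with UO126 and 275.4 with LY294002. With PDGF it was 15.4 without inhibitor, 22.6 with SU6656, 51.3 with UO126 and 158.0 with LY294002. Both LY294002 arrays lay above all 6 others, of which every one was below 68.8, the signal at the edge of the filter. With the partner arrays that dim, the ratios are lower bounds. Taking the filter edge for any signal below it, LY294002 was at least 3.95-fold above vehicle and, under PDGF, at least 2.35-fold above PDGF alone. By that measure 37 of 22626 probe sets (0.164%) were at least 2-fold up in both ratios.

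The Irs2 probe set lies below the filter, so its test comes from the fit with no filter. There the LY294002 effect was 2.18 (SE 0.368, 95% interval 1.32 to 3.04), a size that depends on the added value, and limma's adjusted p = 0.0998 did not pass the threshold. It stood 98th of 22626 by p, in a fit that called 45 probe sets (0.199%). Over 6 other settings the effect was 1.64 to 2.72 and the adjusted p 0.0883 to 0.442, and without any 1 array 1.71 to 2.65 and 0.101 to 0.484. PDGF was not a source of difference that passed (0.07, −0.54 to 0.67, adjusted p = 0.956). The 9-array table has no LY294002 array, and its Irs2 probe set (92205_at) was dim and uneven. It read 36.2 untreated, 33.1 with UO126, 117.3 with PD98059, 48.5 with PDGF, 36.0 with UO126 plus PDGF, and 125.3 with PD98059 plus PDGF. In the repeat it was 53.1, 149.7 with PDGF and 27.5 with PDGF and SU6656. Both PD98059 arrays and the PDGF array of the repeat were high, the UO126 arrays were not, and PDGF had an effect of 0.43 (adjusted p = 0.554).

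Irs1, the related adaptor, gave no call and had its highest signal with PDGF and UO126. Its signal in the Src experiment (1423104_at) was 916.3 with vehicle, 727.0 with SU6656, 744.3 with UO126 and 1203.5 with LY294002. With PDGF it was 678.5, 476.5 with SU6656, 1518.4 with UO126 and 1039.7 with LY294002. PDGF gave lower values than its partner array in 3 of 4 pairs, and the highest value of all 8 was PDGF with UO126, 2.24-fold above PDGF alone. The LY294002 arrays came next, 1.31-fold above vehicle and 1.53-fold above PDGF alone. The interaction of PDGF with UO126 was 1.34 (SE 0.211, 95% interval 0.86 to 1.82, adjusted p = 0.315), not past the threshold. The LY294002 effect was 0.48 (−0.19 to 1.14, adjusted p = 0.549), and its difference from that of Irs2 was not tested. The effect of PDGF was −0.05 (−0.52 to 0.42, adjusted p = 0.942). The Irs1 probe set of the 9-array table (98824_at) read 10.2 to 70.7 and was higher with PDGF in 4 of 4 pairs, by log2 0.07 to 1.19. The PDGF effect there was 0.53 (−0.16 to 1.21, adjusted p = 0.514). PDGF with UO126 (69.5) was 1.35-fold above PDGF alone (51.5). PDGF with PD98059 was at 43.0, below PDGF alone. The lowest of the 9 was the untreated array, the one with the high Gapdh ratio, and the part of RNA quality in that value was not tested.

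**Figure D2:**
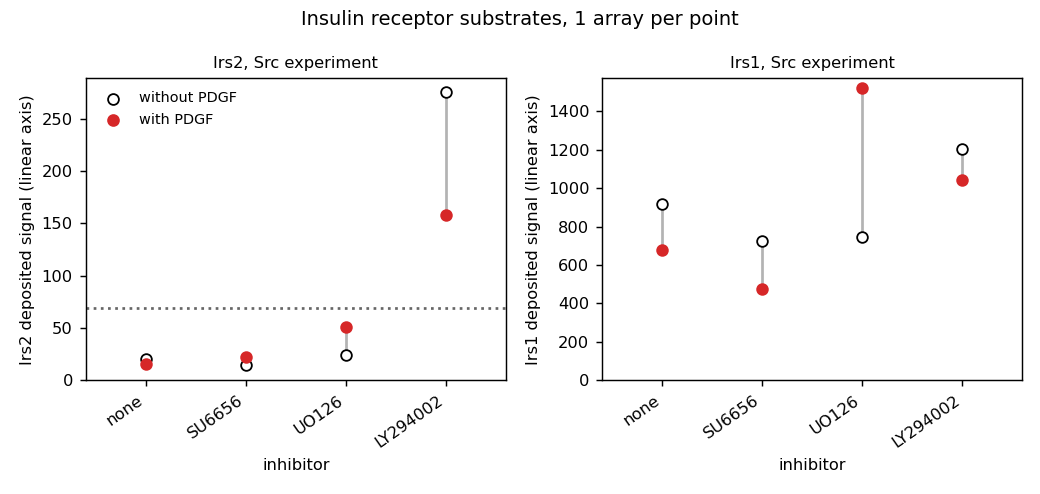
Deposited signal (linear axis from 0) of Irs2 and Irs1 on the 8 arrays of the Src experiment, by inhibitor. Open points are without PDGF and filled points with PDGF, 1 array each, and the dotted line is the filter edge of 68.8. Irs2 is above the line on both LY294002 arrays (275.4 and 158.0) and on no other, and Irs1 is highest with PDGF and UO126 (1518.4).

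Insr, which encodes the insulin receptor, gave no call. Its brighter probe set (1450225_at) read 223.5 with vehicle, 262.2 with SU6656, 280.7 with UO126 and 173.2 with LY294002. With PDGF the values were 237.0, 164.5 with SU6656, 134.0 with UO126 and 252.6 with LY294002. PDGF values were above their partner in 2 pairs and below it in 2, and the PDGF effect was −0.15 (−0.63 to 0.33, adjusted p = 0.792). The other probe set (1421380_at, 6.7 to 71.0) lay below the filter. On the 9 arrays Insr (102146_at) read 13.8 to 116.1, with the lowest value for PDGF and UO126 and the highest for UO126, and a PDGF effect of −0.18 (−1.07 to 0.71, adjusted p = 0.891).

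Of the PI3K subunits, Pik3ca was steadier in the 8-array table at its brightest probe set than at its second, dimmer one. Pik3ca, the catalytic subunit p110α, read 475.9 to 596.0 over the 8 arrays (1460326_at), a log2 range of 0.25. This was smaller than the range of all but 4.04% of probe sets, those below the filter included. The lowest was PDGF with UO126 and the highest LY294002. PDGF had an effect of −0.05 (−0.27 to 0.17, adjusted p = 0.85) and LY294002 of 0.15 (−0.16 to 0.46, adjusted p = 0.708). Its second probe set (1423144_at) read 56.7 with UO126 against 119.4 with vehicle, and 98.0 with PDGF and UO126 against 178.2 with PDGF. The UO126 effect there was −0.73 (−1.34 to −0.11, adjusted p = 0.464), while at the first probe set it was 0.01 (−0.30 to 0.32), so the probe sets of the gene disagree. Over their mean it was −0.36, and that of PDGF 0.17. On the 9 arrays of the other design, 92452_at read 174.7 to 341.6 and 104461_at 99.3 to 245.7, with PDGF effects of −0.10 and −0.15, neither past the threshold.

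Pik3r1, the regulatory subunit p85α, had dim signals throughout. Probe set 1425515_at read 144.6 with vehicle, 87.2 with SU6656, 130.2 with UO126 and 139.1 with LY294002. With PDGF the values were 150.3, 153.8 with SU6656, 123.6 with UO126 and 109.4 with LY294002. The SU6656 array was the lowest, and PDGF had an effect of 0.19 (−0.29 to 0.67, adjusted p = 0.717). The other probe sets (1451737_at, 8.0 to 104.6, and 1425514_at, 29.8 to 105.9) lay below the filter. Over the 9 arrays (96592_at) the signal was 25.4 to 179.3, highest with PDGF and PD98059 and lowest with PDGF in the repeat. Its PDGF effect was 0.12 (−0.59 to 0.82, adjusted p = 0.919), and that of MEK inhibition under PDGF 0.98 (−0.06 to 2.02, adjusted p = 0.711).

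**Figure D3:**
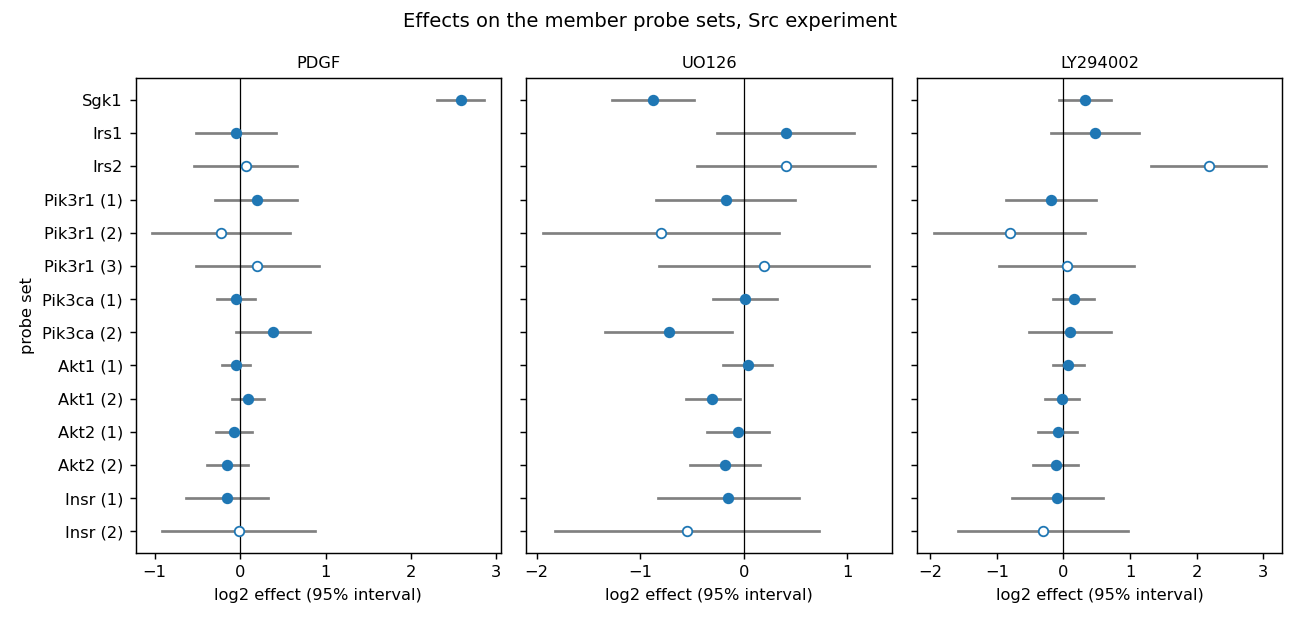
Effects of PDGF, UO126 and LY294002 on the 14 member probe sets of the Src experiment, in log2, with 95% intervals from limma; open points are probe sets below the filter, from the fit with no filter. Numbers in brackets count the probe sets of a gene from the highest mean down. Sgk1 with PDGF (2.58) and Irs2 with LY294002 (2.18) lie farthest from 0.

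Akt1 and Akt2, the kinases activated downstream of PI3K, gave no call in any comparison. Akt1 in the Src experiment (1416657_at) read 1179.3 with vehicle, 1533.5 with SU6656, 1259.4 with UO126 and 1305.4 with LY294002. With PDGF it read 1227.4, 1508.8 with SU6656, 1204.8 with UO126 and 1234.9 with LY294002. The SU6656 arrays were the highest, with an effect of 0.34 (0.10 to 0.57, adjusted p = 0.469), but at the second probe set (1425711_a_at, 862.2 to 1267.8) it was 0.08 (−0.18 to 0.34). The PDGF effect of Akt1 was −0.05 (−0.21 to 0.12, adjusted p = 0.802) in the 8-array table and −0.07 (−0.32 to 0.19, adjusted p = 0.86) in the other. On this scaling the intervals reach at most 0.32 from 0 on the log2 scale, which is no bound on the change. Single pairs of the 9-array table ran from −0.37 to 0.10. Over the 9 arrays Akt1 (100970_at) read 1084.1 with PDGF in the MEK experiment, the lowest, and 1845.8 with PDGF and SU6656 in the repeat, the highest.

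Akt2 read 807.9 to 1084.3 over the Src experiment (1424480_s_at, an ID that marks a possible match to several transcripts), highest with vehicle and lowest with SU6656, and 356.3 to 542.3 at 1421324_a_at. Its PDGF effects were −0.07 (−0.28 to 0.14, adjusted p = 0.782) and −0.15 (−0.39 to 0.09, adjusted p = 0.536). In the 9-array table (160558_at) it read 714.2 untreated, 653.8 with UO126 and 714.0 with PD98059, and with PDGF 483.4, 621.2 with UO126 and 765.8 with PD98059. In the repeat it was 951.1 with vehicle, 580.2 with PDGF and 1193.6 with PDGF and SU6656. Both PDGF arrays without inhibitor were the lowest of the 9. The PDGF effect was −0.30 (−0.64 to 0.05, adjusted p = 0.456), that of MEK inhibition under PDGF 0.53 (0.09 to 0.97, adjusted p = 0.598) and that of SU6656 under PDGF 0.98 (SE 0.235, 0.46 to 1.50, adjusted p = 0.49). None passed the threshold, and the Src experiment had 894.1 with PDGF and 908.1 with PDGF and SU6656, a log2 ratio of 0.01. The other Akt2 probe set of the Src experiment had 408.7 and 521.2 there, a log2 ratio of 0.32.

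**Figure D4:**
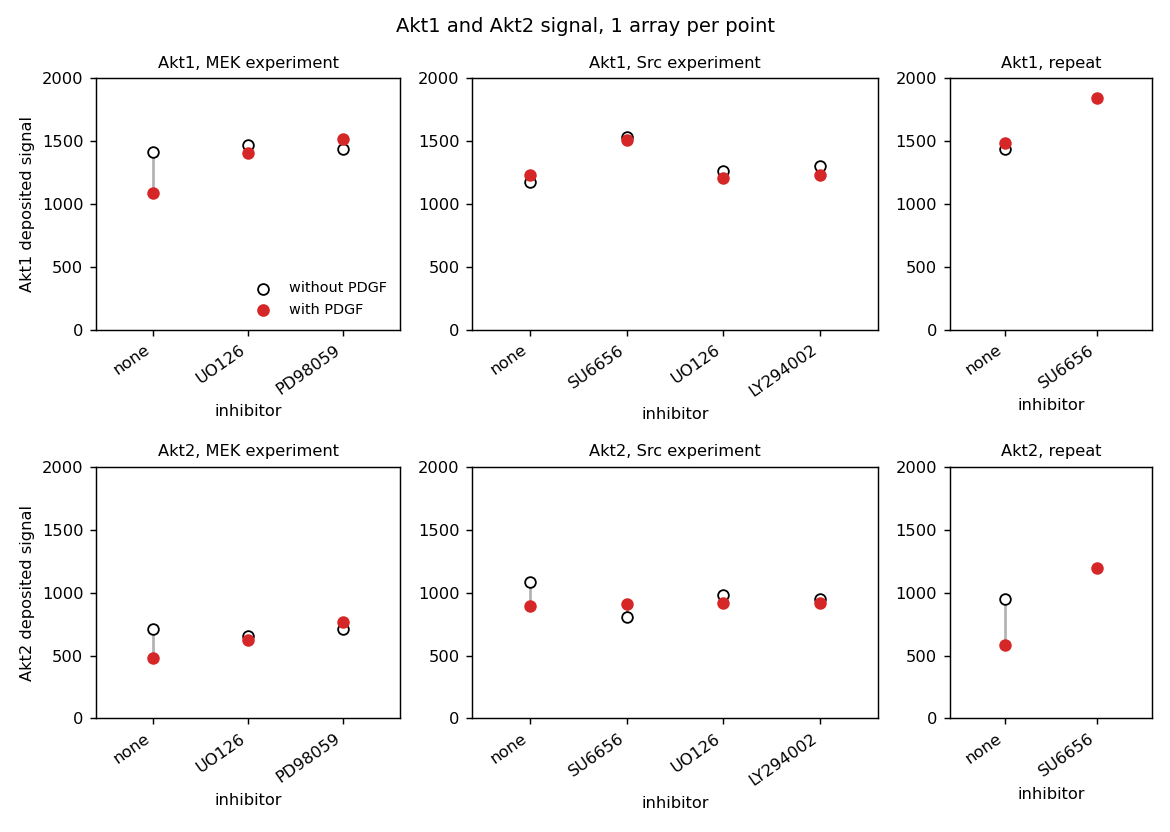
Deposited signal (linear axis from 0) of Akt1 and Akt2 at their brightest probe set, by experiment and inhibitor. Open points are without PDGF and filled points with PDGF, 1 array each. Akt1 stays between 1084.1 and 1845.8, and Akt2 has its lowest values on the PDGF arrays without inhibitor of the 9-array table (483.4 and 580.2).

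The genes called in the wider pathway lay in 4 of 7 lists. Lists of receptors and adaptors, PI3K subunits, lipid phosphatases, AKT and SGK kinases, AKT regulators and substrates, mTOR complex genes and SGK1 substrates held 86 genes, the members included. With PDGF, 3 of 66 genes tested in the 8-array table rose and 3 fell, with a median of −0.06 against −0.05 over all genes, of which 3.3% were called. Of 46 tested in the 9-array table, 2 rose and 3 fell, with a median of −0.07 against −0.04 over all genes, of which 1.85% were called. Receptors and adaptors had 0 of 13 called and 1 of 10, PI3K subunits 0 of 8 and 0 of 5, and lipid phosphatases 0 of 5 and 0 of 4. SGK1 substrates had 0 of 7 and 0 of 5. AKT regulators and substrates had 3 of 12 and 1 of 8, mTOR complex genes 2 of 15 and 2 of 9, and the AKT and SGK kinases 1 of 6 and 1 of 5, which was Sgk1. The lists were made with earlier results of these data known and include Sgk1, so their share of calls beside that of all genes is no test of the pathway.

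The genes called besides Sgk1 were mostly AKT regulators and inhibitors of mTORC1. Trib1, a Tribbles pseudokinase, rose with PDGF in the Src experiment from 29.4 to 542.2 with vehicle, 35.5 to 474.6 with SU6656, 40.8 to 406.2 with UO126 and 23.3 to 696.4 with LY294002 (log2 3.07, SE 0.192, adjusted p = 2.14e-05). All 4 arrays with PDGF were at least 406.2 and all 4 without at most 40.8, below the filter edge, so the size of this effect depends on the added value. Trib2, its relative, rose by 1.14 (SE 0.237, adjusted p = 0.0325), a call lost (0.97 to 1.24) on leaving out any array of 3 pairs, those of vehicle, SU6656 and UO126. It was also lost without the filter, the pair block or the variance trend, and over the mean of its probe sets (0.73). Foxo3, a FOXO factor that AKT phosphorylates, fell by 0.85 (SE 0.111, adjusted p = 0.00235), or by 0.47 over the mean of its probe sets.

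Ddit4 and Sesn1, whose proteins restrain mTORC1, fell with PDGF in both tables. Ddit4 fell by 1.24 (SE 0.116, adjusted p = 0.000292) and by 0.95 (SE 0.161, adjusted p = 0.0138), and the latter call was lost on leaving out either UO126 array (−0.99). Neither Ddit4 call held without the pair block (adjusted p = 0.101 and 0.0741), nor the second without the variance trend (adjusted p = 0.152). Sesn1 fell by 0.71 (SE 0.0966, adjusted p = 0.00298) and by 0.55 (SE 0.112, adjusted p = 0.0402). The second Sesn1 call, and those in the same table of Gsk3a, a kinase that AKT inhibits (0.35, SE 0.0744, adjusted p = 0.0491), and of the PDGF receptor Pdgfra (−0.65, SE 0.116, adjusted p = 0.0189), were each lost without any 1 of the 8 arrays, without the trend and without the pair block. Pdgfra fell short over the mean of its probe sets too (−0.34, adjusted p = 0.339). The Gsk3a call held in 3 of 11 alternatives other than leaving out an array. It was lost with either other scaling and with no filter as well. Among lists with no call, the largest PDGF effects were those of Irs4 (0.44), Pik3cg (−0.32), Inpp5d (−0.19) and Nedd4l (0.42) in the 8-array table, and of Pik3c3 (−0.27), Inppl1 (0.36) and Slc9a3r2 (−0.74) in the other. Nedd4l, a ubiquitin ligase that SGK1 phosphorylates, had an adjusted p = 0.131.

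With LY294002, 0 of 66 genes of the lists rose and 2 fell, with a median of 0.05 against 0.01 over all genes, of which 0.488% were called. Ddit4 fell from 1741.4 to 1033.8 without PDGF and from 878.7 to 288.0 with PDGF (log2 −1.12, SE 0.164, adjusted p = 0.0216). Trib3, a Tribbles pseudokinase reported to bind AKT, fell from 1590.0 to 847.1 and from 1250.2 to 646.1 (−0.91, SE 0.123, adjusted p = 0.0153). Both genes were lower with LY294002 in each pair. Without the vehicle, PDGF, or PDGF with LY294002 array either call was lost, as was that of Trib3 without the LY294002 array (Ddit4 −1.30 to −0.82, Trib3 no higher than −0.82). Both were lost without the trend, and that of Ddit4 with no filter (adjusted p = 0.0696). Among other PI3K readouts, Txnip, a thioredoxin-binding protein and FOXO target, had 0.83 (adjusted p = 0.0499) and 1.30 (adjusted p = 0.0889) at its probe sets, Ccng2, a cyclin and FOXO target, 0.56 and 0.81 (adjusted p = 0.315 and 0.112), and Klf2 1.03 (adjusted p = 0.431). Ddit4 is also counted among FOXO targets, and its change had the other sign. The largest LY294002 effects of the other lists were those of Irs4 (−0.65), Pik3r4 (−0.56), Inppl1 (0.40) and Scnn1a (0.66), none past the threshold.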

How the data were processed

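The authors deposited linear intensity values per probe set, with each array scaled to a common mean after 2% trimming, as the deposited values themselves show (500.2 to 500.4 on every array). Which software made them, and any genome build, is not given in the sources used here. Gene names came from the platform annotation, and RefSeq symbols, coordinates and sequences are of GRCm38.p6. Control probe sets (64 and 66) were left out, values were quantile normalised within each table, and the lowest 30% of probe sets by mean log2 were filtered out, which left 15838 and 8695. The tables were never tested together. Tests used limma 3.58.1 under R 4.3.3 (lmFit, eBayes with trend, Benjamini-Hochberg over all probe sets kept). PDGF was fitted with the pair of arrays sharing an inhibitor as a block, which comes from the design, leaving out the unpaired array with PDGF and SU6656 of the repeat. The 8-array inhibitor effects came from an additive model, and each interaction was 1 added term. The 9-array fit had experiment, PDGF, SU6656, MEK inhibition and PDGF by MEK inhibition as terms. Residual degrees of freedom were 3, or 2 with an interaction in the 8-array table, and this residual holds treatment differences with no term, not a spread of replicates.

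A gene of a list is represented by its brightest probe set. Named genes are all members, list genes called in a fit or with the largest PDGF or LY294002 effect of a list without calls, the 5 genes most like Sgk1, and readout genes of MEK and PI3K. Irs2 itself was not kept in both tables, so genes like it were not sought. The members and lists were chosen with earlier results of these data known. Tested on simulated data of the same size, the PDGF fit recovered 85% and 80% of changes of 1 on the log2 scale in the 8-array and 9-array tables. The LY294002 fit recovered 65%, MEK inhibition under PDGF 54%, the interaction of PDGF with UO126 33% and that of PDGF with MEK inhibition 23%. The simulated noise was independent and held no treatment differences outside the model, so recovery in the real data may be lower.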

Additional observations from a re-analysis of the deposited data

How the results depend on the processing

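Alternatives were other scaling, added values, filters and probe set rules, no variance trend, no pair block, separate MEK inhibitor terms and leaving out each array. The Sgk1 rise with PDGF was called under all of them, at 2.46 to 2.73 and 1.71 to 1.99 on the log2 scale, and without the replicate block the number of members called stayed 1 in each table. The number called with MEK inhibition under PDGF was 1 in place of 0 with the lowest 50% left out and with the mean of each gene's probe sets. That for UO126 minus LY294002, 1, was 0 with no filter and with no variance trend, and 0 to 1 without 1 array. Fewer probe sets are tested under the stricter filter and per gene, and more with no filter. The cause without the trend was not tested. Every other number of members called was the same. No called effect changed sign. Scaling to a common median moved the median PDGF effect over all probe sets of the 8-array table from −0.03 to 0.04 and turned the uncalled PDGF effects of Irs1 (0.06), Pik3ca (0.02), Akt1 (0.08) and Akt2 (0.04). Over the mean of each gene's probe sets the PDGF effects of Pik3ca (0.17) and Akt1 (0.02) and the UO126 effect of Pik3ca (−0.36) turned, the latter also with the deposited scaling (−0.01). Without 1 array, uncalled PDGF effects crossed 0 for Irs1 (−0.39 to 0.12) and Insr (−0.37 to 0.05) in the 8-array table. In the other they did so for Insr (−0.48 to 0.37), Pik3r1 (−0.06 to 0.56), Pik3ca (−0.28 to 0.03 and −0.32 to 0.07) and Akt1 (−0.12 to 0.03). The Pik3ca effects of UO126 (−0.09 to 0.10) and, at 1423144_at, of LY294002 (−0.04 to 0.24) did so as well. The effect of MEK inhibition under PDGF on Pik3r1 was 0.52 to 2.37.

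Totals over all probe sets moved more. For PDGF, 525 in the 8-array table became 184 without the trend, 244 without the replicate block and 264 to 384 without 1 array, and 147 in the 9-array table became 65, 60 and 103 to 109. For LY294002 81 became 45 with no filter, 54 with scaling to a common median, 0 without the trend and 4 to 106 without 1 array. For UO126 7 became 0 with no filter and without the trend, 4 per gene and 0 to 8 without 1 array. For SU6656 17 became 11 with no filter, 7 per gene, 0 without the trend and 0 to 19 without 1 array. For UO126 minus LY294002 222 became 94 with no filter, 146 per gene, 0 without the trend and 15 to 192 without 1 array, with 15 without the LY294002 array. The Irs2 signals without LY294002 lie at the dim end of the arrays, which limits their precision.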
